A study of Mus musculus with 72 samples.

Results

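The 4 genes described here encode the activator arm of the mammalian circadian clock: Arntl (also called Bmal1), its paralog Arntl2, and their partners Clock and Npas2. They were taken from the count tables by gene symbol, 4 of 46078 gene identifiers, and all 4 passed the filter on low counts. RNA was measured by sequencing in interfollicular epidermis, the skin epithelium between the hair follicles, from female C57BL/6 mice of 8 weeks. All mice had lived in 12 h of light and 12 h of dark until 7 weeks of age and then in constant darkness, for 156 to 176 h in total. In KO mice (Bmal1-stopFL) a loxP-flanked stop cassette sat in Arntl throughout the body, and no Cre was present. RE mice (Bmal1-stopFL/K14-Cre) carried the same cassette and a Cre driven by the keratin 14 promoter, which is active in keratinocytes, so that other cells kept the cassette. WT mice (K14-Cre) carried the Cre and no cassette. Each genotype was represented by 24 mice, 4 at each of 6 time points, with 1 library per mouse. The title of the series concerns light as a signal that sets clocks outside the brain, and these animals are its darkness arm. Hours are not labelled per time point, and the 6 time points were taken to follow each other at equal distances of 4 h.

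In the clock of mammals, ARNTL pairs with CLOCK or with NPAS2, and the pair binds E-box DNA and switches on transcription. Among the genes it switches on are the Per and Cry repressors, which block the pair, and the nuclear receptors Nr1d1 and Nr1d2, which repress Arntl, Clock and Npas2 through elements shared with the ROR activators. Dbp, an output factor transcribed from E-boxes, is often read as a measure of the pair's activity. ARNTL2 can also pair with CLOCK, and NPAS2 was first described in the forebrain.

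The promoters are shown because the members moved in different directions when Arntl was blocked. The windows below run from 250 bases before to 50 bases after a RefSeq transcription start (GRCm38.p6), 5′ to 3′ on the strand of the gene. They cover chr7:113207261-113207560 (Arntl, plus strand, the second of 2 annotated starts), chr5:76303453-76303752 (Clock, minus strand, the third of 3 starts), chr1:39194022-39194321 (Npas2, plus strand) and chr6:146805280-146805579 (Arntl2, plus strand). Capitals mark each AGGTCA, the half-site bound by ROR and NR1D receptors, and each CCAAT, the CCAAT box. Both strands were searched, so that TGACCT and ATTGG are the same motifs on the other strand. The E-box CACGTG was searched too.
Arntl: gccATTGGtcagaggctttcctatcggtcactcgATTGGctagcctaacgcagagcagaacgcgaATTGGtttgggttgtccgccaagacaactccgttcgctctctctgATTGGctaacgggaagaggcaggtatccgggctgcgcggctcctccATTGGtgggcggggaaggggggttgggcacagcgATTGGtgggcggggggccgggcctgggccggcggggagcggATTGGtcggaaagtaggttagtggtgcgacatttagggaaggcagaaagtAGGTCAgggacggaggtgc
Clock: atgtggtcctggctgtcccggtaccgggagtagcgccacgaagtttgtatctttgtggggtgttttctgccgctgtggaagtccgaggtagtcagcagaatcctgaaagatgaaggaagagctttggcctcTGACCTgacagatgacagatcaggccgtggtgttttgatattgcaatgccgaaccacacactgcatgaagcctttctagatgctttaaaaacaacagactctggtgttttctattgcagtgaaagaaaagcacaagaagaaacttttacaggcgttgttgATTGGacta
Npas2: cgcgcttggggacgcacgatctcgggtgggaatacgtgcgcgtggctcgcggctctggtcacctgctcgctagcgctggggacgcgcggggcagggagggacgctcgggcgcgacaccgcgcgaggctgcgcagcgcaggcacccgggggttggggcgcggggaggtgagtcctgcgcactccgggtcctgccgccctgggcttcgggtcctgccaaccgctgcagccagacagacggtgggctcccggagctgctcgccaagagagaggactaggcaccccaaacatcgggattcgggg
Arntl2: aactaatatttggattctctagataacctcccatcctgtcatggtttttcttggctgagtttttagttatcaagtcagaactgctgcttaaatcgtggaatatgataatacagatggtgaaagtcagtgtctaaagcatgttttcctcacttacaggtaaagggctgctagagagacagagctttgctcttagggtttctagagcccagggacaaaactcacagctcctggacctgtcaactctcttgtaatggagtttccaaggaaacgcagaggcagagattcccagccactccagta

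The Arntl window held 7 CCAAT boxes, all on the minus strand, and 1 AGGTCA that began 32 bases into the transcript. The overlapping window of the first Arntl start held 8 CCAAT boxes and no AGGTCA. Of 32851 mouse windows of the same length 37.4% held at least 1 CCAAT box, and 4 windows, 0.0122%, held 7 or more, a number chosen after the sequences were seen. Of these 4, 2 are the overlapping windows of Arntl itself. The Clock window held 1 AGGTCA and 1 CCAAT box, and the windows of the other 2 Clock starts held neither. No CACGTG was present in any window of the 4 genes, and the Npas2 and Arntl2 windows held none of the 3 motifs. Both of these windows lie inside the annotated genes, which start at chr1:39193731 (Npas2) and chr6:146796055 (Arntl2). The sequence around those 2 gene starts was not searched. The printed Clock window also lies inside its gene, which starts at chr5:76304792 on the minus strand. The window of the first Clock start covers that position and was searched. For Arntl and for Clock, the printed window is the only one of the gene that held the half-site. AGGTCA was found in 16.3% of all windows and CACGTG in 7.15%. These matches describe letters in short windows and say nothing about binding.

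The libraries held between 24.5 M and 95 M counts, with a median of 35.4 M (M for mega). Levels are given as CPM, counts per 1 M of the scaled library total. Markers of basal keratinocytes were high in nearly all libraries, with a median summed level of 23150 CPM in KO, 22330 CPM in RE and 23400 CPM in WT mice. A library of time point 6 stood apart in each genotype on the first principal component: KO replicate 4, RE replicate 1 and WT replicate 4. These 3 libraries also had the lowest basal marker sums, at 3665 CPM, 13670 CPM and 10090 CPM. Results that rest on them are given with and without them where both were computed. Summed markers of suprabasal keratinocytes were higher in KO mice, at a median of 25850 CPM, against 21490 CPM in RE and 19300 CPM in WT mice. Summed globin and other red cell markers had medians of 69.9 CPM in KO, 49.1 CPM in RE and 31.9 CPM in WT mice. The part of these markers in the differences below was not tested. In bulk tissue, fewer cells of a type and less RNA per cell cannot be told apart.

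Per kilobase of exon, the order of the activators in epidermis differed in mice with the blocked Arntl gene. Npas2, the least abundant of the 4 in WT mice, was the most abundant in KO mice. That order depends on dividing by exon length, 13727 bases for Clock and 4791 for Npas2. In CPM alone Clock stayed above Npas2 in KO mice, at 132.9 ± 14.62 against 74.35 ± 16.88 (mean ± SD, n = 24). On a scale of CPM per kilobase of exon, KO mice held 15.5 ± 3.52 of Npas2, 9.68 ± 1.07 of Clock, 5.66 ± 0.951 of Arntl2 and 4.11 ± 0.256 of Arntl (mean ± SD, n = 24). RE mice held 8.26 ± 0.773 of Clock, 8.11 ± 1.08 of Arntl, 6.18 ± 0.979 of Arntl2 and 4.04 ± 1.34 of Npas2 on that scale. WT mice held 7.75 ± 1.13 of Clock, 7.19 ± 4.01 of Arntl, 6.57 ± 0.950 of Arntl2 and 4.25 ± 3.50 of Npas2. The RE and WT orders were the same, and neighbours in the WT order lay within their spread over the cycle.

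The WT order per kilobase also turned over within the cycle. At time point 1 the level per kilobase was highest for Arntl, at 12.8 ± 0.436 CPM (n = 4), then Npas2 at 9.39 ± 0.675, Clock at 9.26 ± 0.317 and Arntl2 at 7.24 ± 0.946. At time point 3 it was Clock at 6.36 ± 0.974, Arntl2 at 5.97 ± 0.861, Arntl at 3.04 ± 0.50 and Npas2 at 1.54 ± 0.246. Arntl and Npas2 thus traded first places for last, while Clock and Npas2 at time point 1, and Clock and Arntl2 at time point 3, lay within each other's SD.

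**Figure D1:**
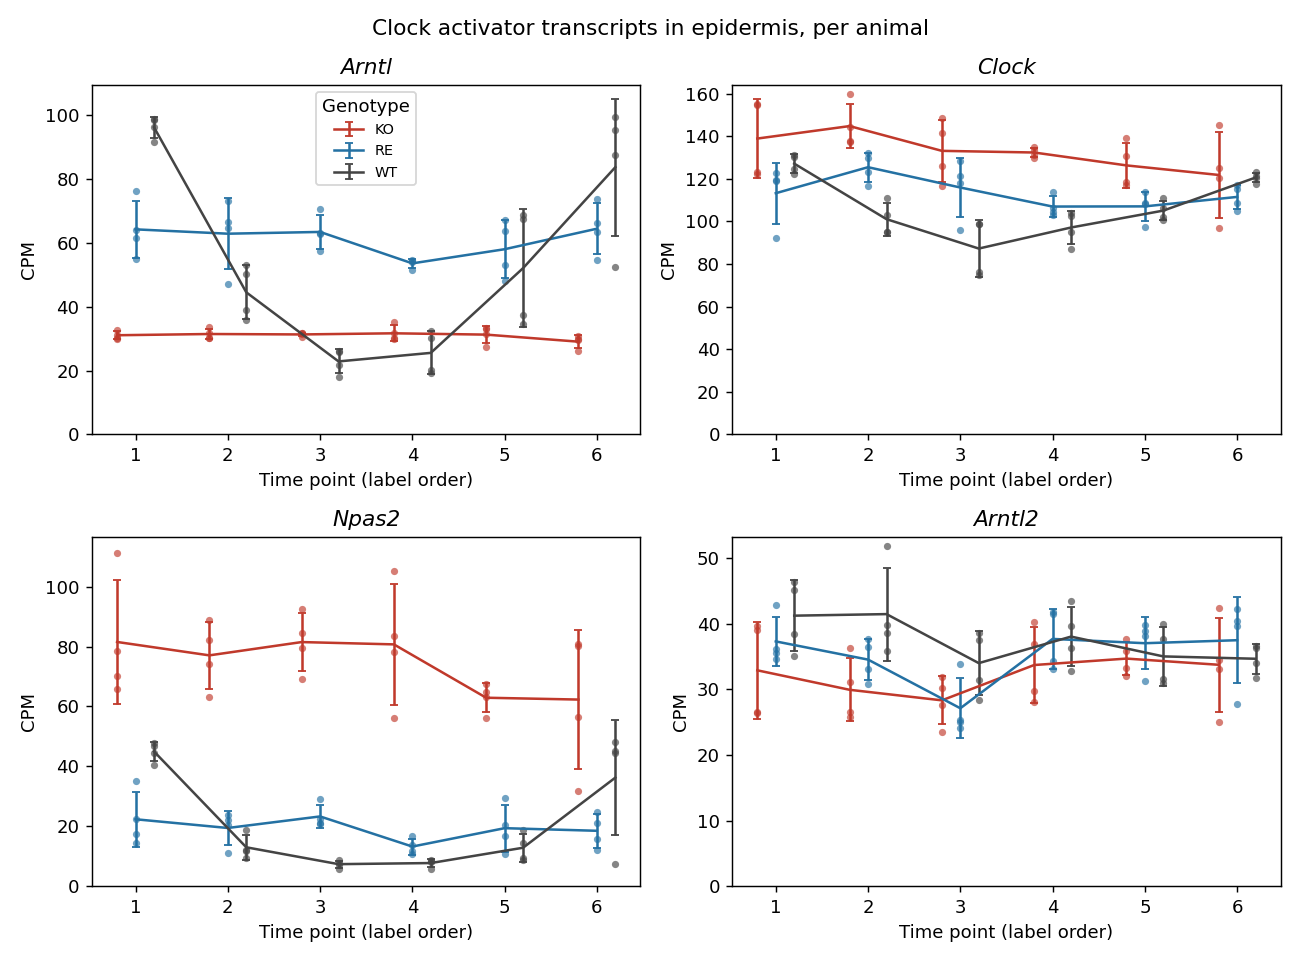
CPM of each gene (y axis) at the 6 time points in label order (x axis) in KO, RE and WT mice; points are single mice, lines join means and bars are SD (n = 4). Npas2 in KO mice lay at 31.8 to 111 CPM and above WT mice without overlap at time points 1 to 5, and Arntl was flat at 26.1 to 35.1 CPM in KO mice.

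Over the cycle all 4 members differed between KO and WT mice, with Npas2 and Clock higher and Arntl and Arntl2 lower; 28.2% of the 18538 genes tested differed in that comparison. All p-values of the levels and rhythms are from edgeR's quasi-likelihood F test on all 72 libraries, adjusted by the Benjamini-Hochberg method over those genes, and a change was called at an adjusted p under 0.05. Between RE and WT mice 1 of 4 members differed, Arntl, against a background of 4.03%. Between RE and KO mice 3 of 4 differed, with Arntl higher and Clock and Npas2 lower in RE mice, against 22.5% of all genes. The KO to WT and RE to WT comparisons share the WT mice, and both comparisons with KO share the KO mice. At single time points, 1 to 6 in order, edgeR called 1.95%, 3.31%, 7.59%, 5.07%, 6.12% and 3.45% of genes between KO and WT mice. Between RE and WT mice it called 0.124%, 0.0647%, 0.739%, 0.583%, 1.08% and 0.0162%, and between RE and KO mice 0.324%, 0.534%, 0.566%, 0.906%, 1.18% and 4.96%. These shares move with single libraries: leaving out 1 library gave 190 to 2253 genes between KO and WT mice at time point 6, where 640 were called with all, and 162 to 1609 between RE and KO mice, where 919 were called.

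Arntl (chr7:113207465-113314126, plus strand), the gene that carries the cassette, kept a flat and measurable level in KO mice. Single KO mice ran from 26.1 to 35.1 CPM with a median of 31.0 CPM, RE mice from 47.1 to 76.2 CPM with a median of 62.8 CPM, and WT mice from 18.1 to 99.2 CPM with a median of 44.5 CPM. Every RE mouse lay above every KO mouse, and KO and RE mice both lay inside the WT range. Counts are per gene, so that they do not tell which exons were read, and the position of the cassette in the transcript was not used here.

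The sign of the Arntl difference depended on the time of day. At time point 3, near the WT trough, the 4 KO mice had 30.4, 31.7, 31.6 and 31.5 CPM, the 4 RE mice 70.4, 63.0, 57.3 and 62.6 CPM, and the 4 WT mice 25.7, 18.1, 21.6 and 26.0 CPM. All 4 KO mice and all 4 RE mice thus lay above all 4 WT mice. At time point 1 the KO mice had 31.2, 29.9, 32.8 and 30.2 CPM, the RE mice 55.0, 76.2, 63.8 and 61.6 CPM, and the WT mice 91.4, 96.0, 98.2 and 98.5 CPM. There the order was KO lowest, RE between and WT highest, without overlap. The difference of RE from WT mice at time point 1, -0.58 on the log2 scale, was not called (edgeR adjusted p = 0.158). How many of all genes separate without overlap in this way was not counted.

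Per time point, Arntl was called lower in KO than in WT mice at time points 1, 5 and 6 (fell by 1.63, 0.74 and 1.53 on the log2 scale; edgeR adjusted p = 5.12e-10, 0.00308 and 5.44e-09). The difference of 0.45 at time point 3 was not called (adjusted p = 0.0779), and without the 3 libraries that stood apart it was 0.44 and was called (edgeR adjusted p = 0.0461), as was the difference of -0.52 at time point 2 (0.0272). With all 72 libraries DESeq2 also called Arntl lower in KO mice at time point 2 (-0.51, DESeq2 adjusted p = 0.0426). Across the cycle the mean log2 level was -0.61 ± 0.065 in KO relative to WT mice (standard error; edgeR adjusted p = 1.39e-11). In RE mice it was 0.37 ± 0.064 higher than in WT mice (edgeR adjusted p = 9.31e-05), with calls at time points 3 and 4 (1.47 and 1.07; adjusted p = 4.07e-08 and 8.65e-05). This RE call belongs to the log scale: mean CPM was 61.0 ± 8.10 in RE and 54.1 ± 30.2 in WT mice, a ratio of 1.13 with an adjusted p of 0.177 by a permutation test within time points. RE mice held 1.97 times the KO level, 0.98 ± 0.065 on the log2 scale (edgeR adjusted p = 5.43e-20), and the difference was called at each of the 6 time points.

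Npas2 (chr1:39193731-39363236, plus strand), which encodes the alternative partner of ARNTL, had the largest difference of the 4 in both comparisons with KO mice. Single KO mice ran from 31.8 to 111 CPM with a median of 76.1 CPM, RE mice from 10.6 to 35.1 CPM with a median of 20.6 CPM, and WT mice from 5.67 to 48.2 CPM with a median of 10.6 CPM. In 23 of 24 KO mice Npas2 lay above every WT mouse, and in 23 of 24 it lay above every RE mouse. The exception was replicate 4 of time point 6, a library that stood apart. The fitted mean was 2.21 ± 0.14 higher on the log2 scale in KO than in WT mice, a 4.64-fold difference (edgeR adjusted p = 2.15e-21). Without the 3 libraries that stood apart it was 2.19.

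The Npas2 difference between KO and WT mice was widest near the WT trough. At time point 3 the KO mice had 92.6, 84.5, 69.2 and 79.7 CPM, the RE mice 20.7, 29.0, 21.3 and 22.3 CPM, and the WT mice 5.85, 7.17, 7.83 and 8.64 CPM. The 3 genotypes did not overlap, and KO was 11.0-fold above WT (3.46 ± 0.35 on the log2 scale; edgeR adjusted p = 1.01e-10). At time point 1 the KO mice had 70.2, 65.9, 111 and 78.6 CPM, the RE mice 14.4, 35.1, 22.4 and 17.6 CPM, and the WT mice 47.9, 46.8, 44.6 and 40.6 CPM. The KO mice again lay above the WT mice without overlap, but the log2 difference of 0.86 ± 0.31 was not called (adjusted p = 0.150). Without the 3 libraries that stood apart it was 0.85 and was called (edgeR adjusted p = 0.0318). Calls were made at time points 2 to 5, with log2 differences of 2.57, 3.46, 3.38 and 2.29, and not at time point 6 (0.78, adjusted p = 0.141). At time point 6 the difference was 0.66 without the 3 libraries that stood apart, 0.44 without WT replicate 4 and 1.00 without KO replicate 4, and none of these was called (edgeR adjusted p = 0.201, 0.319 and 0.114).

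RE mice held Npas2 near the WT average but without its swing. The fitted log2 mean in RE was 0.27 ± 0.13 relative to WT mice (95% interval 0.0092 to 0.53; edgeR adjusted p = 0.281), and on the CPM scale it was 19.4 ± 6.41 in RE and 20.4 ± 16.8 in WT mice, a log2 ratio of -0.072. At time point 3 RE mice were 3.15-fold above WT mice (1.66 ± 0.33 on the log2 scale, edgeR adjusted p = 0.00493). At time point 6 the RE mice had 24.8, 21.3, 12.2 and 15.7 CPM and the WT mice 44.4, 45.0, 48.2 and 7.44 CPM. All RE mice were below 3 of the 4 WT mice, and the fourth WT mouse, replicate 4, was the lowest of the 8. With it the log2 difference was -0.97 and was not called (adjusted p = 0.460), and without it -1.31 (edgeR adjusted p = 0.0367). Without the 3 libraries that stood apart, Npas2 was also called lower in RE than in WT mice at time point 1 (-1.02, edgeR adjusted p = 0.0454). Relative to KO mice Npas2 fell by 1.94 on the log2 scale in RE mice (standard error 0.14; edgeR adjusted p = 7.02e-19), and the fall was called at all 6 time points.

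Clock (chr5:76209868-76304792, minus strand), the usual partner of ARNTL, was modestly higher in KO mice. Single KO mice ran from 96.7 to 160 CPM with a median of 132 CPM, RE mice from 92.1 to 132 CPM with a median of 115 CPM, and WT mice from 74.9 to 131 CPM with a median of 104 CPM. In 12 of 24 KO mice and 1 of 24 RE mice Clock lay above every WT mouse. The fitted level was 1.26-fold that of WT mice in KO (0.33 ± 0.038 on the log2 scale, edgeR adjusted p = 2.21e-10) and 1.07-fold in RE mice (0.10 ± 0.038, adjusted p = 0.129). RE mice lay 0.23 ± 0.038 log2 units below KO mice (edgeR adjusted p = 4.56e-06).

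The Clock difference was likewise widest at time point 3. KO mice were above WT mice without overlap at time points 2 to 5, and the difference was called at time points 2 to 4 (0.52, 0.61 and 0.45 on the log2 scale; edgeR adjusted p = 0.000378, 6.63e-06 and 0.00134). At time points 1 and 6 the differences were 0.13 and 0.015 and were not called. In RE mice Clock was called above WT at time point 3 only, by 0.41 ± 0.094 (edgeR adjusted p = 0.0173). That call was lost when either of WT replicates 2 and 3 or any of RE replicates 1, 2 and 4 of that time point was left out, with adjusted p up to 0.109.

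Arntl2 (chr6:146796055-146833529, plus strand), the paralog of Arntl, moved least. KO mice ran from 23.5 to 42.5 CPM with a median of 32.0 CPM, RE mice from 24.2 to 42.9 CPM with a median of 35.9 CPM, and WT mice from 28.4 to 51.8 CPM with a median of 37.1 CPM. The genotypes overlapped at each time point, and 8 of 24 KO mice and 4 of 24 RE mice lay below every WT mouse. The mean over the cycle was 1.16-fold lower in KO than in WT mice (-0.22 ± 0.061 on the log2 scale, edgeR adjusted p = 0.00508). RE mice differed from WT mice by -0.091 ± 0.061 (adjusted p = 0.474) and from KO mice by 0.12 ± 0.061 (adjusted p = 0.137), and neither was called. On all 72 libraries edgeR called Arntl2 at no time point in any comparison. DESeq2 on the same libraries called it lower in KO than in WT mice at time point 2 (-0.48, DESeq2 adjusted p = 0.0384). Without the 3 libraries that stood apart edgeR made that call too (-0.49, edgeR adjusted p = 0.0344). The paralog was thus not higher in the mice in which Arntl was blocked.

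**Figure D2:**
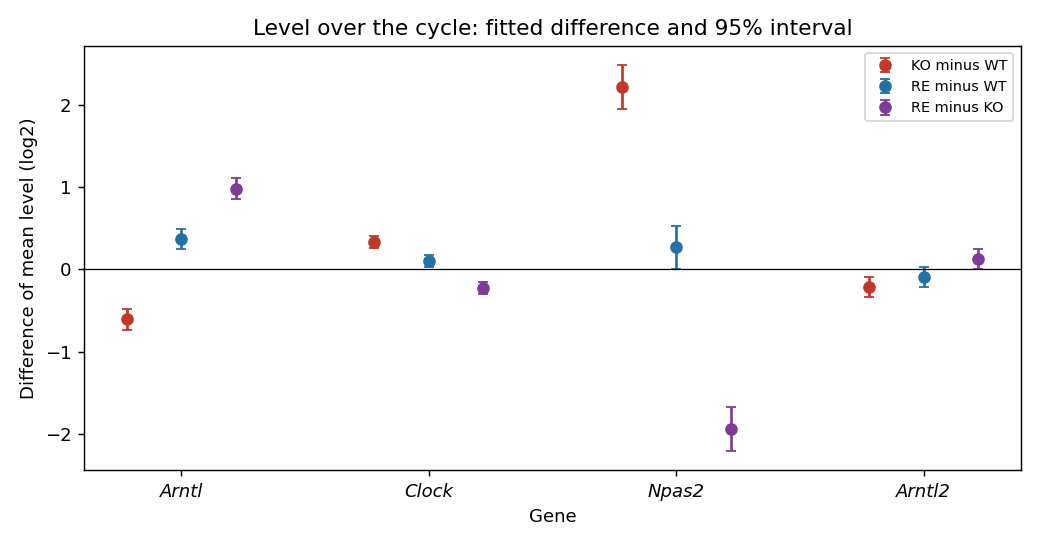
Difference of the fitted mean level over the cycle (y axis, log2) for each gene (x axis) in KO relative to WT, RE relative to WT and RE relative to KO mice; points are edgeR estimates and bars 95% intervals (24 mice per genotype). Npas2 stood at 2.21 in KO relative to WT mice and -1.94 in RE relative to KO mice, while the Arntl2 differences lay between -0.22 and 0.12.

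The daily rhythm of the activators was present in WT mice and was not detected in KO or RE mice. A 24 h rhythm was called for 3 of 4 members in WT mice, where 11.0% of all genes were called, and for 0 of 4 in KO mice (5.87% of genes) and 0 of 4 in RE mice (2.70%). DESeq2 also called 0 of 4 in KO and in RE mice. At an unadjusted p under 0.05, Clock passed in KO mice, and Clock and Arntl2 passed in RE mice. At that threshold 4306 of the 18538 genes tested passed in KO and 3006 in RE mice, and nothing is read from these passes. Fitted peak-to-trough differences in KO mice were 0.084 ± 0.13 for Arntl, 0.20 ± 0.076 for Clock, 0.39 ± 0.26 for Npas2 and 0.27 ± 0.12 for Arntl2 on the log2 scale. In RE mice they were 0.23 ± 0.13, 0.20 ± 0.076, 0.41 ± 0.27 and 0.33 ± 0.12 for the same genes. In WT mice they were 2.19 ± 0.13, 0.50 ± 0.076, 2.82 ± 0.27 and 0.21 ± 0.12, so that Npas2 swung 7.05-fold, Arntl 4.58-fold and Clock 1.41-fold.

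The rhythm of Arntl, Clock and Npas2 differed between genotypes when the difference itself was tested. In KO relative to WT mice the edgeR adjusted p was 9.46e-14 for Arntl, 0.000878 for Clock and 1.61e-07 for Npas2, so that 3 of 4 members were called, against 6.20% of genes. In RE relative to WT mice it was 6.84e-12, 0.00537 and 2.39e-05, again 3 of 4, against 2.17%. Arntl2 was not called in either (adjusted p = 0.226 and 0.323). Between RE and KO mice edgeR called no gene in the table (0%; 364 genes had an unadjusted p under 0.05, and DESeq2 also called 0), and the unadjusted p of the 4 members ran from 0.340 for Arntl to 0.903 for Clock. The Clock call in RE relative to WT mice was lost when time point 2 or time point 3 was left out.

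The mix of partner transcripts shifted towards Npas2 in KO mice. Npas2 made up 60.9 ± 5.95% of the sum of Npas2 and Clock per kilobase in KO mice, 32.2 ± 6.69% in RE mice and 30.5 ± 14.3% in WT mice (n = 24). The size of these shares depends on the exon lengths used for both genes. WT mice came nearest to the KO share at time point 1, with 50.3 ± 2.34% (n = 4), and fell farthest from it at time point 4, with 18.5 ± 2.94%. The highest single WT mouse had 52.9%, and the lowest KO mouse, replicate 4 of time point 6, had 43.1%. The log2 ratio of Npas2 to Clock within a library was 1.95 higher in KO than in WT mice, a 3.85-fold shift. The permutation test within time points gave an adjusted p of 1.8e-05 over 9 ratio tests, from a raw p of 1e-05, the smallest that 100000 permutations can give. In RE mice the ratio differed from WT by 0.20 (adjusted p = 0.293) and from KO by -1.75 (adjusted p = 1.8e-05 by the same permutation test).

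**Figure D3:**
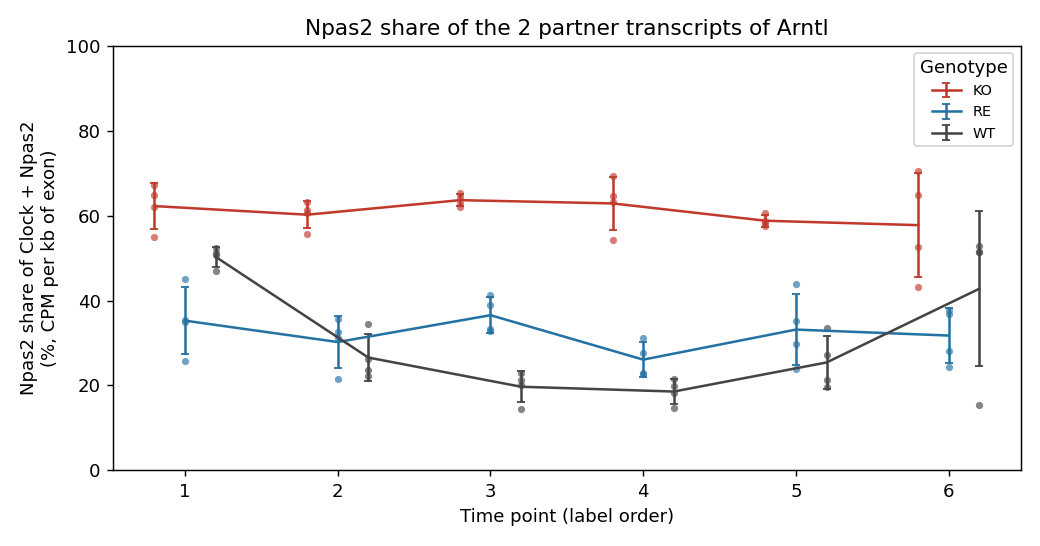
Npas2 as a percentage of Npas2 plus Clock, both in CPM per kilobase of exon (y axis), by time point in label order (x axis) in KO, RE and WT mice; points are mice, bars SD around the mean (n = 4). KO mice averaged 60.9%, RE mice 32.2%, and WT mice moved between 18.5% at time point 4 and 50.3% at time point 1.

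Arntl relative to Clock behaved otherwise. The log2 ratio of Arntl to Clock was 0.90 lower in KO than in WT mice (-0.90; permutation adjusted p = 1.8e-05) and 0.29 higher in RE than in WT mice (permutation adjusted p = 0.0144). It lay between -2.38 and -1.70 in single KO mice, between -1.31 and -0.58 in RE mice, and between -2.31 and -0.29 in WT mice, so that RE and KO mice did not overlap and WT mice spanned both. The log2 ratio of Arntl2 to Arntl was 0.35 higher in KO than in WT mice (permutation adjusted p = 0.0395), a call that was lost without any of 14 single libraries, 10 of them WT. In RE mice that ratio was -0.49 relative to WT mice (permutation adjusted p = 0.00845) and -0.84 relative to KO mice (1.8e-05).

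Animals taken at the same time point resembled each other most closely for Arntl in KO mice. The mean absolute deviation of log2 CPM from the median of the same genotype and time point was 0.057 in KO, 0.12 in RE and 0.25 in WT mice. The KO spread was 0.227 times the WT spread (permutation test, adjusted p = 0.00024 over 12 tests) and the RE spread 0.471 times (adjusted p = 0.0327). The RE call was lost when any of 15 single WT libraries was left out, with adjusted p up to 0.216. The SD within time points was 0.091 log2 units for Arntl in KO mice, where the median of all tested genes was 0.28, against 0.35 and 0.22 in WT mice. For Clock, Npas2 and Arntl2 no difference of spread was called: Npas2 deviated by 0.22 in KO, 0.31 in RE and 0.30 in WT mice. The WT value of Npas2 rests in part on replicate 4 of time point 6, without which the KO spread minus the WT spread was 0.021 in place of -0.079.

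Differences between mice of the same time point were then set against each other, as deviations of log2 CPM from the mean of the same genotype and time point. The permutations shuffled deviations across time points, although those of the mice at a time point cancel out. The p-values of these relations therefore tend to be too small. In RE mice a mouse high in Arntl was also high in Npas2 and low in Dbp, although no rhythm was called for any of the 3. Pearson's r of Arntl with Npas2 was 0.84 in RE mice (n = 24, permutation adjusted p = 5.25e-05 over 42 relations), with Spearman's rho of 0.73 (permutation adjusted p = 0.000578). It was 0.34 in KO mice (0.206), with rho of 0.26 (0.381), and 0.73 in WT mice (5.25e-05), with rho of 0.75 (0.00036). Without the 2 mice farthest from the median of Arntl r was 0.77 in RE, 0.054 in KO and 0.65 in WT mice. The difference of r was not called between any pair of genotypes (permutation adjusted p = 0.103 for RE against KO, 0.278 for KO against WT and 0.311 for RE against WT mice).

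Arntl and Dbp opposed each other in RE and WT mice and not in KO mice. Pearson's r was -0.82 in RE mice (permutation adjusted p = 5.25e-05; rho -0.80, 0.00021), 0.0014 in KO mice (0.995; rho -0.070, 0.845) and -0.86 in WT mice (5.25e-05; rho -0.87, 0.00014). Leaving out the 2 mice farthest from the median gave -0.75, -0.011 and -0.82 in the same order. The correlation differed between RE and KO mice and between KO and WT mice (permutation tests of the difference of r, adjusted p = 0.00293 and 0.00222 over 9 tests), a test added after the values were seen. Between RE and WT mice it was not called (adjusted p = 0.555).

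Npas2 and Dbp showed the same pattern. Pearson's r was -0.79 in RE mice (permutation adjusted p = 5.25e-05; rho -0.76, 0.000252), 0.27 in KO mice (0.374; rho 0.15, 0.649) and -0.91 in WT mice (5.25e-05; rho -0.86, 0.00014). Without the 2 mice farthest from the median of Npas2 r was -0.70, 0.084 and -0.83. The difference of r had an adjusted p of 0.00222 both between RE and KO mice and between KO and WT mice (permutation), and of 0.311 between RE and WT mice. Dbp itself deviated little among KO mice, where it lay at 4.07 to 7.23 CPM, against 8.01 to 60.1 CPM in RE and 1.87 to 148 CPM in WT mice. Without the 3 libraries that stood apart, r of Arntl with Dbp was -0.83 in RE, -0.17 in KO and -0.85 in WT mice. In the same order, r of Npas2 with Dbp was then -0.79, 0.075 and -0.82, and r of Arntl with Npas2 was 0.83, 0.057 and 0.71. The tests of the difference of r were not repeated without these libraries.

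**Figure D4:**
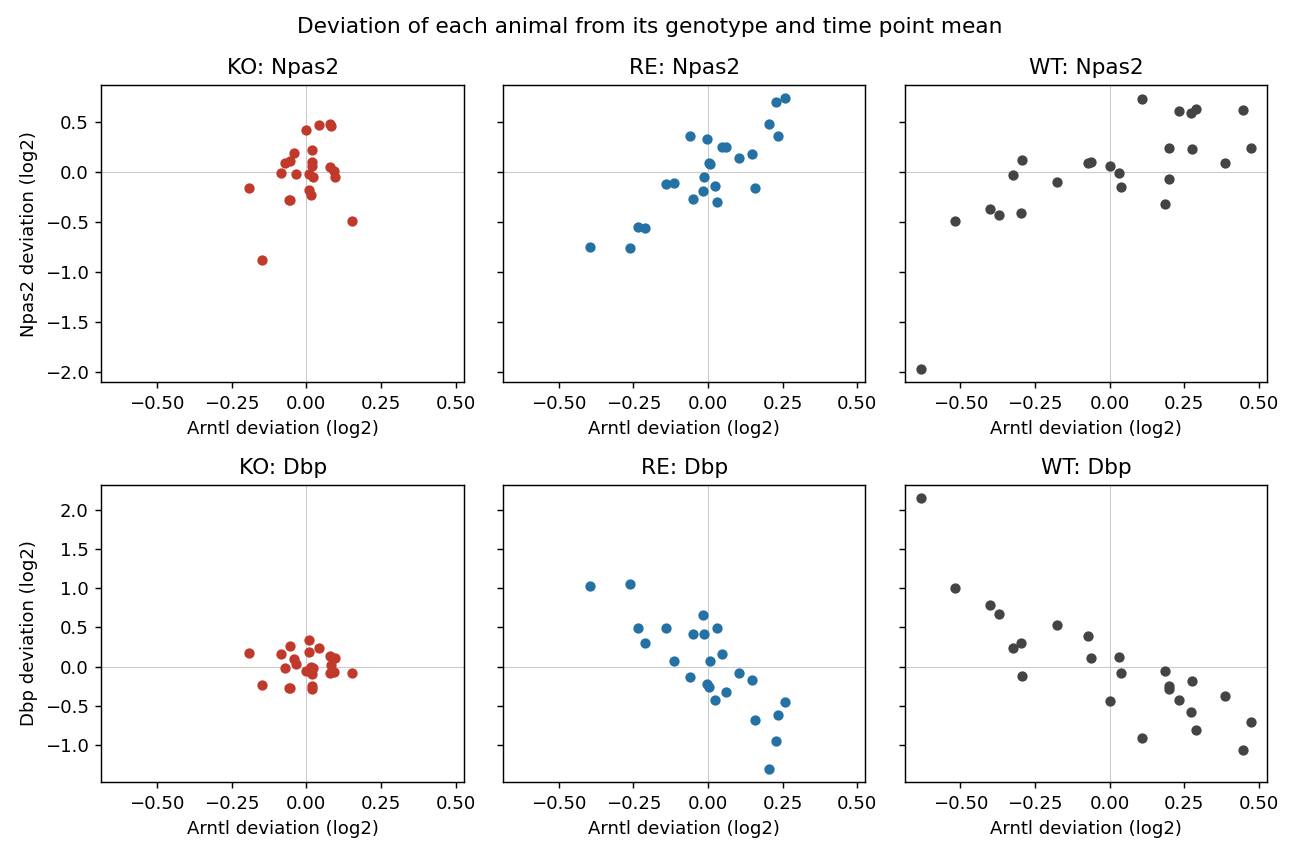
Deviation of each mouse from the mean log2 CPM of its genotype and time point, for Arntl (x axis) against Npas2 (upper row, y axis) and Dbp (lower row, y axis), in KO, RE and WT mice; each point is a mouse (24 per panel). RE and WT points run upwards for Npas2 (r = 0.84 and 0.73) and downwards for Dbp (r = -0.82 and -0.86), and the KO points show little spread in Arntl or Dbp.

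Clock followed Arntl less closely. Their r was 0.40 in RE mice (permutation adjusted p = 0.144; rho 0.33, 0.242), 0.087 in KO mice (0.798; rho 0.14, 0.651) and 0.61 in WT mice (0.00719; rho 0.68, 0.00201), where it was 0.67 without the 2 mice farthest from the median of Arntl. In KO mice Clock opposed Dbp, with r of -0.57 (permutation adjusted p = 0.0142; rho -0.61, 0.00811; -0.58 without 2 mice). The sign was the same in RE mice (r = -0.48, permutation adjusted p = 0.0569; rho -0.48, 0.0546) and in WT mice (r = -0.36, 0.186; rho -0.54, 0.0283). No difference of r between genotypes was tested for Clock with Dbp. Nr1d1, the receptor that represses Arntl, opposed Arntl in WT mice (r = -0.77, permutation adjusted p = 5.25e-05; rho -0.76, 0.00035; -0.65 without 2 mice). In RE mice r was -0.49 (permutation adjusted p = 0.0501) and rho -0.50 (0.0437), and without 2 mice r was -0.29 (0.341). In KO mice the sign was positive (r = 0.53, permutation adjusted p = 0.0291; rho 0.51, 0.0437), and this relation rested on the 2 mice farthest from the median, without which r was 0.39 (0.188). Arntl2 followed none of the other members in any genotype.

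Over all 72 libraries each member had other close companions. The ranking used Pearson's r of log2 CPM over 12697 genes, and it is a description in which genotype, time and library are shared. The genes most like Npas2 were Ttc9 (r = 0.94), Fam234b (0.86), Impa2 (0.86), Acadl, an enzyme of fatty acid oxidation (0.85), and Cxcl14, a chemokine of skin (0.84). Those most like Clock were Stox2 (0.87), Daam1 (0.85), Macf1, a linker of microtubules and actin (0.83), Mkln1 (0.81) and Fam234b (0.80). Those most like Arntl2 were Gcfc2 (0.79), the long noncoding RNAs D230017M19Rik (0.79), 5930430L01Rik (0.79) and Gm15408 (0.78), and Zfp329 (0.78). Arntl had weaker companions: Ikzf4 (0.66), Kyat3 (0.65), Ccdc66 (0.63), Ankle1 (0.61) and Rexo5 (0.61).

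Within single genotypes these correlations were as follows, with no test of their differences. The r of Ttc9 with Npas2 was -0.059 in KO, 0.67 in RE and 0.91 in WT mice, and that of Fam234b with Npas2 was -0.27 in KO, 0.80 in RE and 0.87 in WT mice. Cxcl14 followed Npas2 in all 3, with 0.82 in KO, 0.74 in RE and 0.89 in WT mice. Stox2 followed Clock in all 3 (KO 0.81, RE 0.66, WT 0.90), and Gcfc2 followed Arntl2 in all 3 (KO 0.88, RE 0.84, WT 0.75). Ikzf4 followed Arntl with 0.42 in KO, 0.13 in RE and 0.81 in WT mice.

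The rest of the clock moved in both directions in KO mice. Of 10 genes of the repressor arm, 7 were called between KO and WT mice by edgeR, 1 higher and 6 lower, where 28.2% of all tested genes were called, with a median log2 difference of -0.97 against -0.0026 over all tested genes. Nr1d1 fell by 4.46 (standard error 0.20), Nr1d2 by 2.92 (0.11) and Per3, a Period paralog, by 2.22 (0.14), and the gene called higher was Cry1, at 1.60 (0.10). All 4 genes of another list, the PAR bZIP factors Dbp, Tef and Hlf and their competitor Nfil3, were called, against the same 28.2%. Dbp fell by 2.58, Tef by 0.86 and Hlf by 0.34, and Nfil3 was higher by 0.71.

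For partners and regulators outside the core loop the counts stand beside the 28.2% of all genes called in KO relative to WT mice, and nothing is read from them. Of 15 other genes with bHLH-PAS domains 11 were tested and 3 were called in KO relative to WT mice, all lower: Ncoa3 (-0.13 ± 0.039), Npas4 (-0.68 ± 0.22) and Epas1 (-0.27 ± 0.089). Of 11 coactivators and chromatin partners of the CLOCK complex 1 was called, Med1 at -0.088. Of 9 genes for clock protein turnover 3 were called: Btrc at -0.19, Fbxw11 at 0.12 and Fbxl21 at 0.47. In RE relative to WT mice, where 4.03% of all genes were called, 1 of the genes in these lists was called, the repressor Bhlhe41 (-0.57 ± 0.15, edgeR adjusted p = 0.0168).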

How the data were processed

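The deposited values are raw read counts for Ensembl genes, a table for each mouse. The submitters' processing notes name Trimmomatic, TopHat2 2.1.1, featureCounts and the build GRCm38 (mm10). The annotation, the strand setting and the handling of reads with several positions that the authors chose were not given in the sources used here. No annotated gene shares exon bases with the 4 members. Symbols, coordinates and exon lengths came from GENCODE M21, which matched 45229 of 46078 identifiers.

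Counts were scaled by TMM and filtered with filterByExpr (18 groups of genotype and time point, minimum count 10). edgeR 4.0.16 in R 4.3.3 fitted 1 model with a mean, cosine and sine per genotype (24 h) to all libraries, and a model of 18 group means for single time points. Log2 CPM used a prior count of 2. Spread, ratios and relations between mice used 100000 permutations. The edgeR tests of rhythm in WT mice and of mean level in KO relative to WT mice were tried on simulated data. DESeq2 1.42.0 was an alternative. Named genes were the 4 members, the 5 genes most like each, and up to 3 per list with the smallest adjusted p for KO or RE relative to WT. Cry1 and Nfil3 were named after their values were seen. The results of 1 list are not reported here. The members and lists were chosen with earlier results of these data known. Time points count hours from time point 1. Nothing says whether mice were processed in batches, and p-values measure the spread between these mice.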

Additional observations from a re-analysis of the deposited data

Results flagged for a closer look

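In 4 of 72 sets of 4 mice (a gene in a genotype at a time point) the extreme mouse lay farther from the rest than Dixon's test allows at the 95% level, where chance gives about 1 set in 20. The lowest was Npas2 in WT replicate 4 of time point 6, at 7.44 CPM against 44.4 to 48.2 CPM in the other WT mice. The same mouse had 52.4 CPM of Arntl against 87.4 to 99.2, 27.0 CPM of Dbp against 3.23 to 4.53, and 76.0 CPM of Nr1d1 against 12.0 to 20.9. It is also a library with low basal keratinocyte markers, and the part of that in these values was not tested. Clock in RE replicate 4 of time point 1 was at 92.1 CPM against 119 to 123 CPM. Arntl2 in RE replicate 2 of time point 3 was at 33.9 CPM against 24.2 to 25.4 CPM. Arntl in KO replicate 1 of time point 3 was at 30.4 CPM against 31.5 to 31.7 CPM, a small gap in a group with an SD of 0.603 CPM.

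The genotype difference itself varied over the cycle for 3 of the 4 genes, by the edgeR test of the difference of rhythm. For KO relative to WT mice the adjusted p was 9.46e-14 for Arntl, 0.000878 for Clock and 1.61e-07 for Npas2, and for RE relative to WT mice 6.84e-12, 0.00537 and 2.39e-05.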

How the results depend on the processing

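The calls of mean level and rhythm for the 4 genes kept their side of the threshold under RLE factors, no filter on low counts and DESeq2, and so did all of them when single libraries were left out. For single time points DESeq2 added the calls of Arntl and Arntl2 in KO relative to WT mice at time point 2. Replicate numbers were not used to pair the mice, since only 28 of 72 pairs of same-numbered libraries had a correlation over 0.1 (median 0.046). Of 72 libraries 28 correlated best with their own number, where 1 in 4 would by chance, a hint from the data and not from the design. With replicate number as a block, Npas2 in KO relative to WT mice was 2.22 and Arntl -0.60, and no call changed. Sizes of rhythm differences here and below are differences of peak-to-trough values, while their calls test the cosine and sine terms together. In RE relative to KO mice the size for Npas2, near 0, became -0.0074 with the block. The size for Clock became -0.019 with time point as a factor, where it was taken from the highest and lowest group means. On mean CPM the RE to WT log2 ratio was 0.17 for Arntl, no longer called, and -0.072 for Npas2.

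Leaving out a time point mattered more, and the cause was not tested. The Clock rhythm difference in RE relative to WT mice lost its call without time point 2 (-0.36) or 3 (-0.23). Uncalled rhythm differences changed sign: in RE relative to KO mice Npas2 without time point 1 (-0.072) or 4 (-0.22), Clock without 2 (-0.030), 3 (-0.033) or 4 (-0.033) and Arntl2 without 3 (-0.11), and Arntl2 relative to WT in KO mice without 3 (-0.10) or 4 (-0.051) and in RE mice without 3 (-0.21). Over all genes, calls of rhythm in KO, 1088 with all libraries, were 200, 1924, 564 and 683 without time points 2, 3, 5 and 6. In RE, 501 became 178 and 239 without 2 and 5, and 1112 with time point as a factor. In WT, 2031 became 985, 1238, 1324, 1230 and 3260 without 1, 2, 3, 5 and 6. Calls of rhythm difference, 1150 in KO relative to WT mice, became 622, 311, 593 and 535 without 1, 2, 3 and 5, and 574 with time point as a factor. In RE relative to WT mice, 402 became 240, 84, 201, 111 and 763 without 1, 2, 3, 5 and 6, 192 with the factor and 703 in DESeq2. Calls of mean level in RE relative to WT mice, 748, became 486 without a filter, 149, 358, 344 and 330 without 1, 3, 4 and 5, and 1195 without the 3 libraries that stood apart. In RE relative to KO mice, 4174 became 2290 without 2.

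Without those 3 libraries, Arntl2 changed sign at time point 6 in KO relative to WT (0.080) and RE relative to KO mice (-0.032), as did its rhythm difference in RE relative to KO mice (-0.030). Spread around the mean in place of the median made the Arntl difference of RE from KO a call (0.063) and turned RE relative to WT for Clock (0.0049) and Npas2 (-0.033). Correlations near 0 changed sign: Arntl with Arntl2 in KO mice (-0.0031 with RLE factors, -0.088 with the block, -0.25 without the 3 libraries, -0.14 without 2 mice), Arntl with Dbp in KO mice (-0.047, -0.18, -0.17 and -0.011 in that order), Npas2 with Arntl2 in KO mice (-0.30 without the 3 libraries, -0.36 without 2 mice) and Clock with Arntl2 in KO mice (-0.14 without 2 mice). So did Arntl2 with Dbp in KO mice (-0.039 with the block, -0.043 without the 3 libraries) and Arntl2 with Nr1d1 in WT (-0.043 with the block) and RE mice (0.040 without the 3 libraries). In KO mice Arntl with Nr1d1 lost its call without the 3 libraries (0.48) or 2 mice (0.39), and Arntl2 with Nr1d1 gained it (-0.59 and -0.57).

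Leaving out single libraries gave 655 to 1566 rhythm calls in KO and 320 to 899 in RE mice. At single time points it gave, for time points 1 to 6, 91 to 370, 269 to 536, 764 to 1464, 563 to 928, 511 to 1212 and 190 to 2253 genes called in KO relative to WT mice, 7 to 28, 2 to 9, 50 to 179, 17 to 141, 32 to 297 and 2 to 25 in RE relative to WT mice, and 30 to 61, 48 to 80, 45 to 114, 84 to 166, 132 to 202 and 162 to 1609 in RE relative to KO mice. The ratio of Arntl2 to Arntl in KO relative to WT mice ran from 0.30 to 0.42. The rhythm differences in RE relative to KO mice ran from -0.0097 to 0.15 for Arntl2, -0.035 to 0.041 for Clock and -0.13 to 0.22 for Npas2. Spread differences ran from 0.045 to 0.071 for Arntl in RE relative to KO and -0.15 to -0.10 relative to WT mice, -0.020 to 0.0074 for Clock in RE relative to WT, and for Npas2 -0.13 to 0.021 in KO and -0.015 to 0.12 in RE relative to WT mice. At single time points, uncalled differences that changed sign ran from -0.070 to 0.056 (Arntl2, KO relative to WT, time point 5), -0.17 to 0.089 (the same at 6), -0.082 to 0.11 (Clock, KO relative to WT, 6), -0.080 to 0.055 (Arntl2, RE relative to WT, 4) and -0.0065 to 0.068 (Clock, RE relative to WT, 5). Depth did not limit the members, which had at least 5.67 CPM in each library.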
